A study of Danio rerio with 6 samples.

Results

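The genes described here encode the Integrator complex and the factors that form the 3' ends of messenger RNAs. They were taken by symbol from a list of 37 names, of which 36 matched the gene annotation. One name, lsm10, stands on 2 gene IDs and cpsf7 on none, so 37 of the 32520 gene rows were followed. They fall into 16 Integrator genes, 17 genes of cleavage and polyadenylation and 4 gene rows of histone mRNA 3' end formation. Every one of the 37 rows passed the filter on low counts. RNA came from whole zebrafish larvae 5 days after fertilisation and was made into libraries with a stranded mRNA kit, which selects poly(A) tails. There were 3 libraries of pdcd7/cx20 mutants of the allele pd1215 and 3 libraries of their wild-type siblings. The labels do not say what cx20 adds to the name, and no transgene, driver or treatment is given for either group. They state 40 larvae and 3 replicates without saying whether 40 is the number for each replicate, and place all libraries in batch 1. PDCD7 belongs to U11, a particle that recognises the rare introns handled by the minor spliceosome.

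Most transcripts of RNA polymerase II end by cleavage at the end of the gene. For ordinary messenger RNAs the cleavage and polyadenylation machinery reads the AAUAAA signal, cuts the RNA and adds the poly(A) tail. Integrator is a separate complex with a related pair of endonuclease subunits. It cuts the 3' ends of the small nuclear RNAs (snRNAs) of the spliceosome, and in human and fly cells it also ends transcription early at many protein-coding genes, with a bound phosphatase 2A. Messenger RNAs of the replication-dependent histones are cut by yet another route, which uses the stem-loop binding protein and the U7 particle and has no poly(A) step.

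Library totals lay between 75122088 and 87110177 counts. Across the more abundant genes, those at or above the median level of the genes tested, the libraries correlated at 0.997 to 0.998 within genotypes. Between genotypes they correlated at 0.910 to 0.927 (Pearson, log2 CPM, values across genes that are not independent replicates). PDCD7 itself measured 21.8, 19.6 and 20.5 CPM in mutants against 14.8, 15.0 and 15.3 (log2 0.46 ± 0.05 SE, edgeR adjusted p = 7.92e-08), CPM being counts scaled to a common library size. It was thus higher in mutants, and the counts do not show the lesion. Of 24248 genes tested, 34.7% were called higher and 34.2% lower in mutants, so a call alone is common in this comparison. Markers of muscle, liver, exocrine pancreas and lens were all detected in the siblings, as a whole larva would hold. In mutants the summed lens markers fell from between 396.0 and 666.9 CPM to between 9.14 and 27.3, and the exocrine pancreas markers from between 8185 and 9205 CPM to between 724.2 and 1013. All 8 hepatocyte markers were called lower too, with sums of 2239 to 2390.0 CPM against 3710 to 3918. The 7 skeletal muscle markers tested had 3 called higher and 1 lower, and sums of 26672 to 27729 CPM against 26145 to 27137. In bulk larvae, fewer cells of a type and less RNA per cell cannot be told apart.

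Integrator transcripts were mostly higher in mutants, by unequal amounts. Of 16 genes, 13 (81.2%) were called higher and 2 (12.5%) lower, against 34.7% and 34.2% of all genes tested (edgeR quasi-likelihood test, adjusted p under 0.05 over all genes). Their median log2 difference was 0.26, against 0.01 over all genes. The single differences ran from -0.37 to 0.95. At least 1.3-fold higher were 4 of 16, where 18.5% of all genes tested passed that limit. The groups did not overlap in 15 of 16, against 72.1% of all genes tested. INTS4 stood first, and INTS7 moved the other way. Cleavage and polyadenylation transcripts were higher in 15 of 17 genes (88.2%) and lower in 1, with a median of 0.33 and a range from -0.18 to 0.70. In that list 8 of 17 were at least 1.3-fold higher, and 16 of 17 did not overlap. The shares and medians of both lists are descriptions, and the difference between the lists was not tested.

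**Figure D1:**
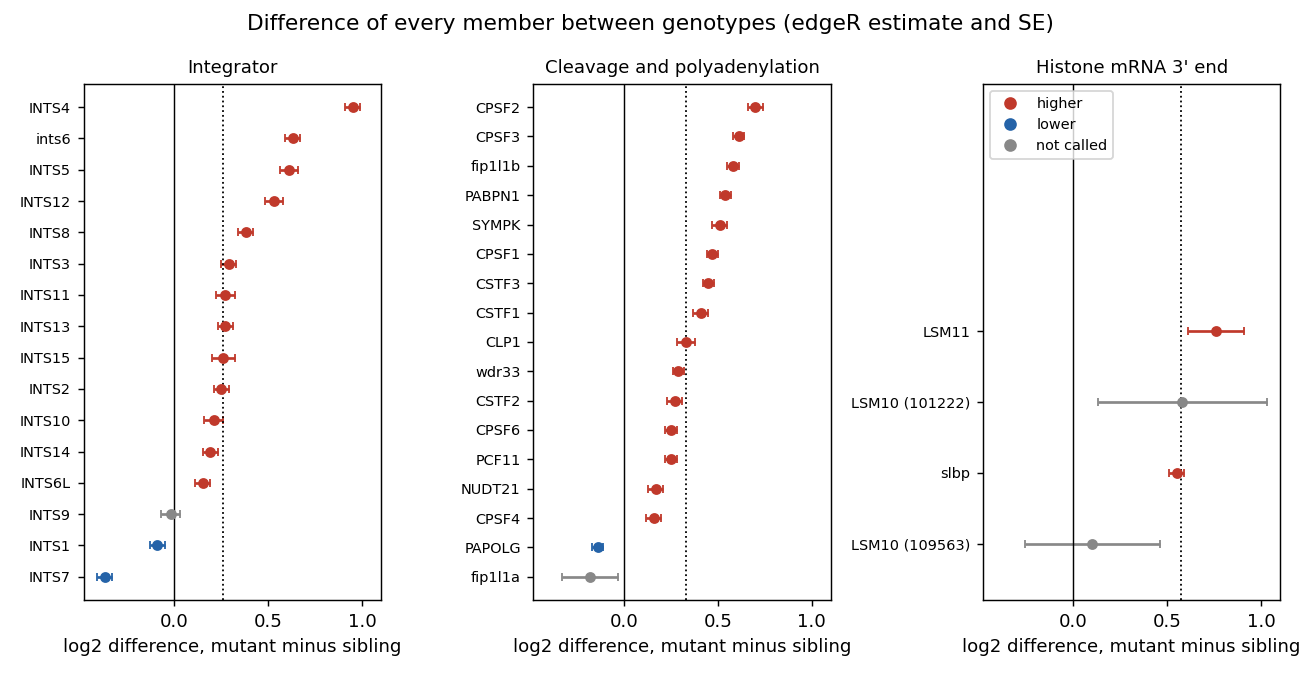
Log2 difference between mutant and sibling libraries (x axis) for each member, as the edgeR estimate with its SE, in 3 panels by process. Red points were called higher, blue lower and grey neither, dotted lines are the list medians of 0.26, 0.33 and 0.57, and LSM10 rows carry the last digits of their ID.

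The cleavage module of Integrator holds INTS4, INTS9 and INTS11. INTS11 is the endonuclease, INTS9 its inactive partner and INTS4 the scaffold that holds the pair. INTS4 (chromosome 18, 3064237 to 3095002, plus strand, build GRCz11) stood at 43.2, 41.6 and 43.4 CPM in mutants and at 22.6, 22.1 and 21.9 CPM in siblings. All 3 mutant libraries lay far above all 3 sibling libraries, and INTS4 was 1.93-fold higher (log2 0.95 ± 0.04 SE, adjusted p = 1.40e-13 in edgeR). INTS11 measured 21.6, 20.8 and 20.3 CPM against 16.8, 16.6 and 18.4, also without overlap, and was 1.21-fold higher (log2 0.27 ± 0.05 SE). INTS9 measured 13.6, 12.7 and 12.7 CPM against 13.2, 12.9 and 13.5. The groups overlapped for INTS9, which was not called (log2 -0.02 ± 0.05 SE, adjusted p = 0.720 in edgeR), and its sign was positive under library-size-only and upper quartile scaling. Within this module, then, 1 subunit showed no detected difference and another the largest rise of the 37 rows.

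The same 3 places in the cleavage and polyadenylation machinery are held by CPSF3, the endonuclease, CPSF2, its inactive partner, and symplekin (SYMPK), the scaffold. CPSF3 (chromosome 20, 29619820 to 29633507, minus strand) measured 54.7, 54.0 and 54.1 CPM in mutants and 35.7, 35.6 and 35.3 in siblings, a 1.53-fold rise (log2 0.61 ± 0.03 SE, adjusted p = 9.07e-12 in edgeR). CPSF2 (chromosome 20, 50052116 to 50089898, plus strand) stood at 48.5, 46.1 and 45.8 CPM against 29.3, 28.2 and 28.9, a 1.62-fold rise (log2 0.70 ± 0.04 SE). SYMPK measured 70.2, 65.4 and 65.1 CPM against 48.0, 46.7 and 45.9, a 1.43-fold rise (log2 0.51 ± 0.04 SE). No mutant library overlapped a sibling library for these 3 genes, which also held for 72.1% of all genes tested.

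The ratio between counterparts, taken within each library, differed between the mutant and sibling libraries. The ratio of INTS9 to CPSF2, as log2 of their CPM, was -1.85 ± 0.02 (SD, n = 3) in mutants and -1.13 ± 0.03 in siblings, a difference of -0.72. The ratio of INTS11 to CPSF3 was -1.38 ± 0.04 against -1.04 ± 0.09, a difference of -0.33. The ratio of INTS4 to SYMPK moved the other way, from -1.08 ± 0.01 in siblings to -0.65 ± 0.06 in mutants, a difference of 0.43. Mutant and sibling libraries did not overlap in any of these ratios. Single genes did not overlap in 72.1% of all genes tested, and how often ratios of other gene pairs overlap was not tested. In an exact two-sided permutation test each gave p = 0.10, also after adjustment over the 4 pairs compared, which is the smallest value that 3 libraries against 3 allow. The pairs were chosen with the values of their genes known. Scaling of the libraries does not enter these ratios.

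INTS1, INTS2 and INTS7 lie in the backbone of Integrator. INTS1 measured 67.8, 68.8 and 65.3 CPM in mutants and 75.1, 70.2 and 69.3 in siblings. The groups were narrowly apart, and INTS1 was lower by a small margin (log2 -0.09 ± 0.04 SE, adjusted p = 0.0371 in edgeR). Adjusted p rose to 0.150 when mutant replicate 3 was left out and to 0.199 when sibling replicate 1 was, which ends the call. It was also lost with library size only (0.716), with upper quartile scaling (0.268) and without edgeR's robust setting (0.0524). INTS2 was higher by log2 0.25 ± 0.04 SE. INTS7 (chromosome 20, 13020489 to 13142357, minus strand) measured 19.4, 18.2 and 18.0 CPM in mutants and 24.5, 23.3 and 24.0 in siblings. Every mutant library lay below every sibling library, and INTS7 fell 1.29-fold (log2 -0.37 ± 0.04 SE, edgeR adjusted p = 3.87e-07). It was lower under each alternative tried. INTS7 shares 305 exon bases with DTL on the opposite strand, and the counting used strand.

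INTS5, INTS6 and INTS8 hold phosphatase 2A on the complex, and INTS3 and INTS12 are further subunits. INTS5 (chromosome 14, 45551993 to 45558490, minus strand) measured 12.2, 11.7 and 12.6 CPM against 8.09, 7.86 and 8.06, a 1.52-fold rise (log2 0.61 ± 0.05 SE, adjusted p = 1.37e-08 in edgeR). INTS12, which carries a PHD finger, measured 12.5, 12.9 and 13 CPM against 8.81, 8.92 and 8.96, a 1.44-fold rise (log2 0.53 ± 0.05 SE). INTS8 was higher by log2 0.38 ± 0.04 SE and INTS3 by 0.29 ± 0.04. All of these were apart in every library, as were 72.1% of all genes tested.

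Zebrafish carry 2 genes of the INTS6 kind. The gene ints6 (chromosome 9, 23825440 to 23841704, plus strand) stood at 28.4, 27.4 and 28.4 CPM in mutants and 18.0, 17.6 and 18.6 in siblings, a 1.55-fold rise (log2 0.63 ± 0.04 SE, adjusted p = 1.14e-10 in edgeR). INTS6L measured 18.9, 18.5 and 18.5 CPM against 17.2, 15.9 and 17.2, a 1.11-fold rise (log2 0.15 ± 0.04 SE, adjusted p = 0.00523 in edgeR). Both were higher in every mutant library than in any sibling library, and 72.1% of all genes tested did not overlap between groups. The log2 ratio of ints6 to INTS6L was 0.59 ± 0.02 in mutants and 0.11 ± 0.04 in siblings (SD, n = 3, exact permutation p = 0.10, the smallest possible). Per kilobase of exon, ints6 stood below INTS6L in siblings, at 4.45 against 5.33 CPM per kb, and above it in mutants, at 6.90 against 5.92. In mean CPM ints6 stood above INTS6L in both groups. The change of order thus rests on exon lengths of 4069 and 3149 bases, joined from all transcripts.

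INTS10, INTS13, INTS14 and INTS15 form another arm of the complex. INTS13 was higher by log2 0.27 ± 0.04 SE, INTS15 by 0.26 ± 0.06, INTS10 by 0.21 ± 0.05 and INTS14 by 0.19 ± 0.04. All 4 were called and none overlapped between groups, beside 68.9% called and 72.1% without overlap over all genes tested. INTS14 shares exon stretches with SLC24A1 and HACD3 on the opposite strand. Per kilobase of exon, Integrator levels in siblings ran from 2.05 CPM per kb for INTS5 to 10.4 for INTS1. The INTS11 row joins 7285 exon bases from all its transcripts, so its 2.37 CPM per kb is a low reading if most transcripts are shorter.

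**Figure D2:**
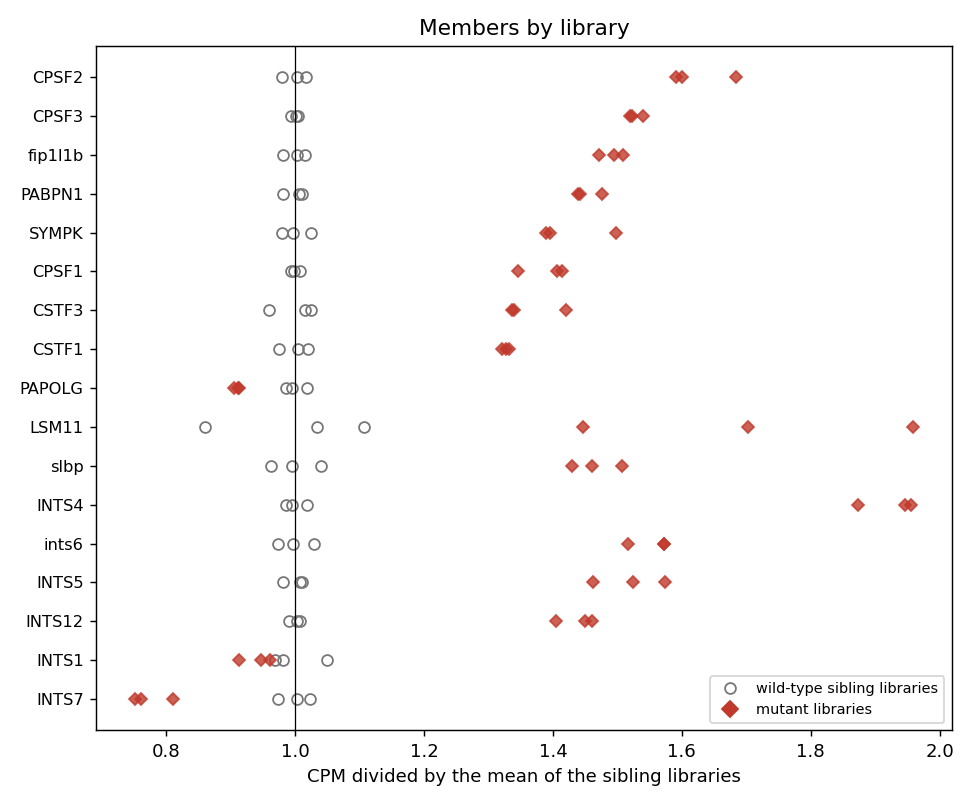
CPM in each library divided by the mean of the 3 sibling libraries (x axis), for the members called and changed at least 1.3-fold and for those called lower. Each red diamond is a mutant library and each open circle a sibling library, and the groups are apart in every gene shown, narrowly so for INTS1.

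The specificity factor of polyadenylation reads the AAUAAA signal through CPSF4 and WDR33, on the scaffold CPSF1, and FIP1 draws in the polymerase. CPSF1 (chromosome 19, 11897631 to 11975164, minus strand) measured 68.6, 65.3 and 68.2 CPM in mutants and 48.4, 48.9 and 48.2 in siblings, a 1.39-fold rise (log2 0.47 ± 0.03 SE, adjusted p = 3.76e-10 in edgeR). Of its exon bases, 35.7% are shared with parp10 on the same strand, and the count of CPSF1 is uncertain there. The gene fip1l1b (chromosome 1, 14382584 to 14404555, plus strand) stood at 73.1, 71.3 and 72.4 CPM against 47.5, 49.2 and 48.6, a 1.49-fold rise (log2 0.58 ± 0.03 SE, adjusted p = 1.63e-11 in edgeR). Its paralogue fip1l1a measured 1.31, 0.952 and 1.22 CPM against 1.41, 1.22 and 1.32. The groups overlapped for fip1l1a, which was not called (log2 -0.18 ± 0.15 SE). Of the exon bases of fip1l1a, 29.8% are shared with LNX1 on the opposite strand, and LNX1 held up to 6172 counts in a library. In siblings fip1l1b stood at 15.2 CPM per kb and fip1l1a at 0.496, so nearly all FIP1 transcript in these larvae came from fip1l1b. Of the signal readers, wdr33 was higher by log2 0.29 ± 0.03 SE and CPSF4 by 0.16 ± 0.04.

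The cleavage stimulation factor (CstF) binds the GU-rich stretch behind the cut. CSTF3, which bridges its subunits, measured 102, 95.9 and 95.6 CPM in mutants and 68.7, 72.7 and 73.3 in siblings, a 1.36-fold rise (log2 0.45 ± 0.03 SE, adjusted p = 2.57e-09 in edgeR). CSTF1 measured 26.8, 26.7 and 26.9 CPM against 20.3, 20.6 and 19.7, a 1.33-fold rise (log2 0.41 ± 0.04 SE). CSTF2, the RNA-binding subunit, was higher by log2 0.27 ± 0.04 SE. All 3 subunits rose without overlap between groups, where 72.1% of all genes tested did not overlap. Cleavage factor I, whose NUDT21 and CPSF6 subunits bind UGUA and steer the choice among poly(A) sites, had CPSF6 higher by 0.25 ± 0.03 and NUDT21 by 0.17 ± 0.04. Cleavage factor II, which couples the cut to termination, had CLP1 higher by 0.33 ± 0.05 and PCF11 by 0.25 ± 0.03.

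The tail itself is made by poly(A) polymerases and measured out by the nuclear poly(A)-binding protein. PABPN1 (chromosome 24, 14559328 to 14577559, minus strand), the most abundant member at 38.0 CPM per kb in siblings, measured 248, 241 and 242 CPM in mutants and 165, 169 and 169.7 in siblings, a 1.45-fold rise (log2 0.54 ± 0.03 SE, adjusted p = 2.13e-11 in edgeR). PAPOLG, a nuclear poly(A) polymerase, measured 90.2, 90.1 and 89.4 CPM against 98.4, 97.4 and 100.6. It was the only gene of this list called lower (log2 -0.14 ± 0.03 SE, adjusted p = 4.68e-04 in edgeR), and the call ended with library size only (adjusted p = 0.064). The main polymerase PAPOLA, which is outside the member list, was higher by 0.14 ± 0.03.

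Histone mRNA 3' ends depend on the stem-loop binding protein and on LSM10 and LSM11, the Sm-like proteins that set the U7 particle apart. The gene slbp (chromosome 14, 14841685 to 14846166, plus strand) stood at 23.3, 22.6 and 22.1 CPM in mutants and 15.4, 16.1 and 14.9 in siblings, a 1.47-fold rise (log2 0.55 ± 0.04 SE, adjusted p = 3.46e-09 in edgeR). LSM11 measured 1.84, 1.6 and 1.36 CPM against 0.971, 0.808 and 1.04, a 1.70-fold rise from a low level (log2 0.76 ± 0.15 SE, adjusted p = 2.41e-04 in edgeR). Of the exon bases of LSM11, 14.4% are shared with ZBTB3 on the opposite strand. ZBTB3 held up to 855 counts in a library, and leakage between strands was not tested. Among the 4 rows of this list only slbp and LSM11 were called and did not overlap between groups. Over all genes tested, 68.9% were called and 72.1% did not overlap. The LSM10 row on chromosome 19 (ENSDARG00000101222) held 8, 20 and 11 counts against 5, 7 and 12 in the sibling libraries, and the row on an unplaced scaffold (ENSDARG00000109563) held 20, 10 and 13 against 12, 13 and 12. Both rows overlapped between groups, and no difference was detectable at this depth. The 2 rows may split the reads of 1 gene, and 48.1% of the exon bases of the first are shared with OSCP1 on the same strand. The list's median of 0.57 rests on these sparse rows too, and moved to 0.42 without mutant replicate 2.

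No member lies on chromosome 7, which carries PDCD7, and 7 of the 37 rows lie on chromosome 14. Markers of dividing cells moved in the same direction as the members. Of 22 replication and mitosis genes 21 were called higher, beside 34.7% of all genes tested. Their summed level was 1368 to 1420.5 CPM in mutants and 953.6 to 978.6 in siblings. Of 11 neural progenitor genes 9 were called higher and 0 lower, beside 34.7% and 34.2% of all genes tested. Their sum was 533.3 to 543.3 CPM against 368.5 to 386.7. The part of these markers in the members' rise was not tested.

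Of 16 partners of Integrator tested, 7 were called higher and 2 lower, with a median of 0.10, beside 34.7% higher and 34.2% lower over all genes. NABP1 and INIP, 2 of the 16, were at least 1.3-fold higher, where 18.5% of all genes tested passed that limit. NABP1 is a single-strand DNA-binding protein that joins INTS3 and INIP in the human SOSS complex. It measured 55.1, 50.9 and 52.0 CPM in mutants and 17.3, 19.3 and 17.6 in siblings, a 2.92-fold rise (log2 1.54 ± 0.04 SE, adjusted p = 6.63e-15 in edgeR). INIP was higher by 0.46 and NABP2, the related subunit, was lower by log2 -0.24. The catalytic phosphatase 2A genes went both ways, with ppp2cb higher by 0.20 ± 0.03 SE and the PPP2CA copies at -0.24 (ENSDARG00000030224) and 0.17 (ENSDARG00000053404). The pausing factors NELFA, NELFCD, NELFE, SUPT4H1 and SUPT5H were not called, with differences between -0.08 and 0.14, and NELFB was higher by 0.18.

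Of 31 termination and further 3' end factors, 22 were called higher and 5 lower, with a median of 0.17, beside 34.7% and 34.2% of all genes. The list is broad and also holds factors of the elongating polymerase, such as RTF1, and the poly(A)-binding genes pabpc1a and pabpc1b. ZC3H4, which with WDR82 stops early transcription, measured 94.3, 101 and 105 CPM in mutants and 52.8, 54.7 and 53.7 in siblings, a 1.86-fold rise (log2 0.90 ± 0.04 SE, adjusted p = 5.29e-13 in edgeR). SRRT, which ties the cap-binding complex to 3' end formation, rose 1.68-fold (log2 0.75 ± 0.03 SE) and WDR82 1.46-fold (log2 0.55 ± 0.04 SE). RTF1, of the elongating polymerase, was lower by log2 -0.17 ± 0.03 SE. ZC3H4 and SRRT had the largest rises of this list.

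**Figure D3:**
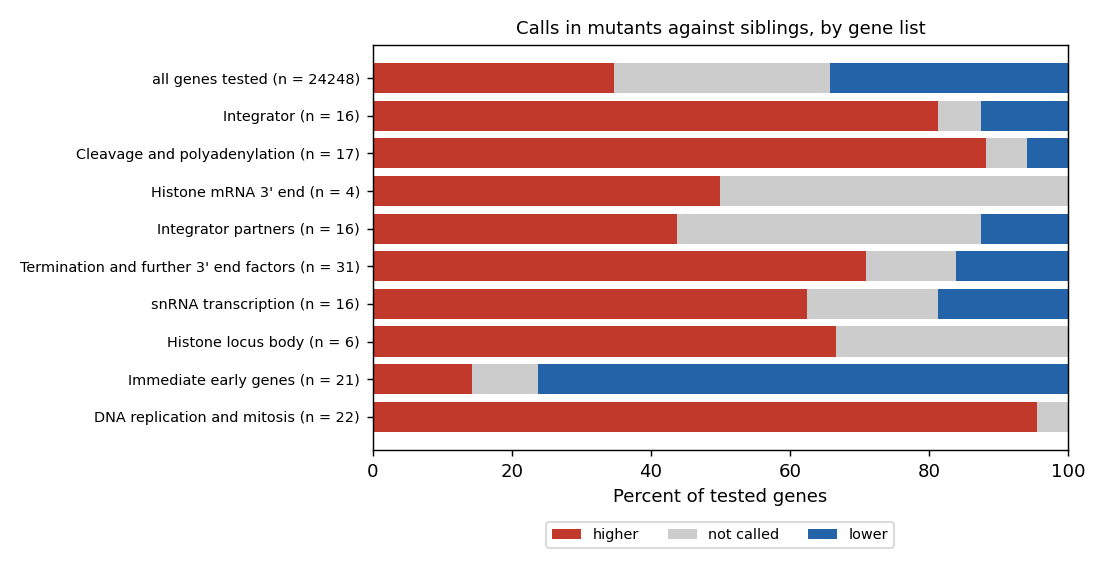
Percent of tested genes called higher (red), lower (blue) or neither (grey) in mutants, for all genes tested and for each list, with the number tested in brackets. All genes split at 34.7% higher and 34.2% lower, the 3 member lists lean to higher, and immediate early genes lean to lower.

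Of 16 genes that serve snRNA transcription, 10 were called higher and 3 lower, beside 34.7% and 34.2% of all genes. The gene ice1, whose product sits in the little elongation complex at snRNA genes, measured 99.5, 95.6 and 102.5 CPM in mutants and 18.7, 18.4 and 17.9 in siblings (log2 2.44 ± 0.04 SE). EAF2, an ELL-associated factor, was higher by log2 0.73 ± 0.04 SE and coil, the scaffold of Cajal bodies, by 1.12 ± 0.07. The rise of ice1 was the largest of the 16. ELL, an elongation factor, was lower by log2 -0.25 ± 0.04 SE. Of 6 tested genes of the histone locus body 4 were called higher and 0 lower, and over all genes 68.9% were called in either direction. ERI1, the exonuclease that trims histone mRNA ends, rose 1.83-fold (log2 0.87 ± 0.06 SE), CRAMP1 by 0.38 ± 0.04 and casp8ap2 by 0.25 ± 0.04.

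Immediate early genes, which Integrator binds in human cells and which are best known for their fast answer to stimulation, were mostly lower. Of 21 tested, 16 were called lower and 3 higher, with a median of -0.48, beside 34.2% lower and 34.7% higher over all genes. The zinc finger gene egr1 measured 66.6, 68.5 and 65.7 CPM against 137, 151 and 138 in siblings, a 2.12-fold difference (log2 -1.09 ± 0.04 SE, edgeR adjusted p = 1.10e-13). The related egr4 was 2.64-fold lower (log2 -1.40 ± 0.05 SE). JUN went the other way, 1.97-fold higher (log2 0.98 ± 0.04 SE, adjusted p = 9.18e-14 in edgeR).

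The substrates of these complexes were looked up after the members, with their values already seen, and get no list test. Mature snRNAs carry no poly(A) tail and are poorly captured by a kit that selects tails. Summed over 234 copies of the U1, U2, U4, U5, U7, U12 and U4atac genes, the mutant libraries held 2040, 1940 and 2289 read pairs and the sibling libraries 50, 49 and 69. Mutants exceeded siblings in every library, 34.4-fold after scaling. U6 snRNA, which RNA polymerase III makes without Integrator, held 31, 16 and 14 read pairs over 303 copies in mutants and 8, 4 and 6 in siblings, a ratio of 3.13 on few reads. A single U7 copy (chromosome 16, 12239407 to 12239460, minus strand) held 34, 46 and 63 read pairs in mutants and 0, 0 and 0 in siblings, at least 14.7-fold higher against a floor of 3 counts in each sibling library. U7 is the RNA of the particle that LSM10 and LSM11 belong to.

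Of the 234 copies, 16 passed the filter on low counts, and 15 of these were called higher. Those 15 held at most 8 counts in any sibling library and passed the filter only through the mutant libraries. Their direction thus follows from the filter, and the share cannot be set against the 34.7% of all genes tested. None of the 16 was called lower, and the 1 not called was a copy of U4. One U4 copy on chromosome 4 (14725074 to 14725214, plus strand) held 232, 214 and 267 read pairs in mutants and 2, 1 and 3 in siblings. Its neighbour at 14732983 to 14733123 held 14, 16 and 19 against 15, 18 and 24, with overlapping groups once scaled. The U4atac copy rnu4atacb of the minor spliceosome held 215, 222 and 273 against 0, 0 and 0, at least 72.8-fold higher by the same floor. By the default of the counting tool, reads that match several copies are not counted, so the share of each copy is uncertain. Of the raised copies, rnu2 and the U1 copies ENSDARG00000113445 and ENSDARG00000114494 lie on chromosome 7, which carries PDCD7. Another gene on the same strand spans 8 of the 16 copies that passed the filter. The U4 copy that was not called is among them, and the U4 copy that rose is not. Whether these reads end at the mature 3' end or run past it cannot be read from counts per gene.

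**Figure D4:**
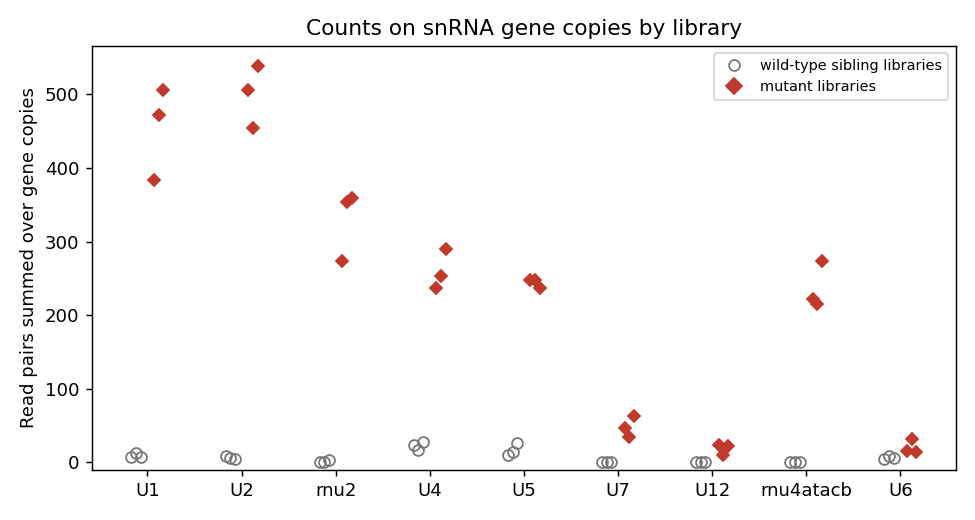
Read pairs summed over the gene copies of each snRNA (y axis, raw counts) in each library. Red diamonds are mutant and open circles sibling libraries, and the groups are apart for every snRNA shown, with U6 reaching 31 in mutants and 8 in siblings.

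Histone transcripts in the polyadenylated RNA moved both ways. By a rule set after values were seen, 20 single-exon rows whose symbols begin with hist, h2bc or h3c were taken. Of these, 13 passed the filter, 7 of them called higher and 3 lower, beside 34.7% and 34.2% of all genes tested. Among those called higher, hist1h2a2, hist1h2a5, hist1h2a9 and hist1h2a10 held at most 10 counts in any sibling library and passed through the mutants. The row h2bc1, called lower, held at most 10 counts in any mutant library and passed through the siblings. The directions of these rows follow from the filter, so the counts of calls are not comparable with the shares of all genes. The summed level of the 20 rows went the other way, at 201 ± 30.3 CPM in mutants and 432 ± 19.6 in siblings (SD, n = 3), a ratio of 0.467. Most of that sum, and nearly all of its fall, lay in histh1l1, with means of 144.8 CPM in mutants and 376.0 in siblings. The sum therefore does not describe the other rows. The histone H3 gene h3c13a (chromosome 25, 35062353 to 35063658, plus strand) stood at 2.32, 2.00 and 1.67 CPM in mutants and 0.219, 0.154 and 0.202 in siblings, 10.3-fold higher (log2 3.37 ± 0.20 SE, adjusted p = 9.01e-11 in edgeR). The linker histone gene histh1l1, far more abundant, measured 119, 176 and 139 CPM against 394, 354 and 380, a fall of 2.60-fold (log2 -1.38 ± 0.17 SE, edgeR adjusted p = 0.00206). The groups did not overlap for either gene, which also held for 72.1% of all genes tested. Near-identical histone copies lose reads that match several places, so values per copy are uncertain. Of the rows called higher, hist1h2a2 and hist1h2a7 lie on chromosome 7, which carries PDCD7.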

How the data were processed

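Each library has a table of raw counts, deposited by the authors and made per the file headers from read pairs with featureCounts 1.6.3 over Ensembl GRCz11 exons (release 115), strand setting 2, with no option for reads of several alignments or several genes. Per the submitters' processing notes, Trimmomatic 0.38 and STAR 2.7.11 were also used. No label says that replicates came from separate clutches, so p-values measure the spread between these libraries, which may be technical. Replicates differed beyond counting noise (chi-square per degree of freedom 4.75 to 6.65), so none was a copy.

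Members, lists and named genes were chosen with earlier results of these data known. Values per library are given for called members past 1.3-fold and for those against their list's majority. For each other list the 3 called genes of smallest p and the first in the other direction are given. Symbols came from a table that named 29201 gene IDs (89.8%), with synonyms from a RefSeq table (GRCz12tu). Of 108 further list entries 13 were not matched, and the marker dld was left out, since that symbol stands on another gene.

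The test was edgeR 4.0.16 (R 4.3.3), quasi-likelihood F-test, two-sided, filterByExpr, TMM scaling, robust dispersion as in that earlier work, and Benjamini-Hochberg adjustment over all 24248 genes at 0.05. SE is the log2 difference over the square root of F. The fitting code was also run on simulated counts with few changed genes. Far more genes were called here, so that run does not gauge the error rate of these calls. A count of 0 allows up to 3 counts, 0.0334 to 0.0410 CPM by library, for counting error only. Alternatives used limma 3.58.1, DESeq2 1.42.0, other scalings and filters, a replicate block and each library left out. Figures used matplotlib 3.10.9. No sequence is printed.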

Additional observations from a re-analysis of the deposited data

How the results depend on the processing

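Of 590 values of single members over 16 alternatives, 580 kept their direction and side of the threshold, and 31 of the 33 called members did so in each. INTS1 and PAPOLG were the others. INTS9, which was not called, turned to 0.05 with library size only and 0.02 with upper quartile scaling, and LSM10 (ENSDARG00000109563) to between -0.27 and 0.29 with a library left out, its low without mutant replicate 1. The count of Integrator genes lower went from 2 to 1 with library size only, with upper quartile scaling, without robust dispersion (added after seeing the data) and at adjusted p under 0.01, and lay between 1 and 2 when each library was left out. With library size only, 0 cleavage and polyadenylation genes were lower, 1 gene of the termination list was lower and 5 immediate early genes were higher. Genes of the termination list called lower numbered 3 in DESeq2, 2 with upper quartile scaling, 2 at adjusted p under 0.01, and 3 to 4 with a library left out. The Integrator median was 0.33 with library size only and 0.30 with upper quartile scaling, and the cleavage and polyadenylation median 0.40 and 0.37, while the median of all genes stood at 0.08 and 0.05. Leaving out libraries gave 0.31 to 0.35 for cleavage and polyadenylation and 0.42 to 0.68 for histone 3' ends.

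No pairing of the libraries by replicate number was detected, though correlations from groups of 3 libraries cannot exclude it. Same-numbered libraries deviated from their group means with correlations of 0.11, -0.16 and -0.08. With the replicate block 13 Integrator genes were higher and 2 lower, as without it. Depth limits LSM10, fip1l1a, several histone rows and the snRNA copies, whose values rest on few reads.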
